A study of Mus musculus with 8 samples.

Results

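The experiment placed an expression vector for the long noncoding RNA Bloodlinc beside an empty vector in erythroid progenitors of the mouse, cells that will become red blood cells. The 2 libraries labelled as Bloodlinc vector and empty vector were taken by their titles out of 8 libraries in the series, and every gene in them was used. Both came from fetal livers of C57BL/6 embryos at E14.5, from progenitors purified by magnetic sorting. The cells were transduced and kept for 24 h in medium with erythropoietin, the hormone that drives red cell formation. Those steps were common to both arms, so the arms differ by label only in the insert of the vector. The other 6 libraries were made from the same kind of cells: a control hairpin and 2 hairpins against Bloodlinc, and a control hairpin and 2 hairpins against the RNA-binding protein hnRNPU. They serve here only as a scale for levels and differences. Each arm held 1 library, so no difference has a replicate check and no p-value is given. The labels do not state which promoter drove the insert, how much of the transcript it held, or whether embryos were pooled.

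Erythroid progenitors in the fetal liver divide a few last times under erythropoietin while they switch on globins, heme enzymes and the membrane skeleton, and then lose their nucleus. Bloodlinc, also called alncRNA-EC7, is transcribed from an enhancer region beside Slc4a1, the gene of the band 3 anion exchanger of the red cell membrane. Megakaryocytes, which shed platelets, arise from a progenitor shared with the erythroid lineage, and both lineages use the transcription factor GATA1.

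Bloodlinc (ENSMUSG00000087330) is annotated as an intergenic long noncoding RNA at chr11:102375549-102377020 on the minus strand of GRCm38 (GENCODE M21). It has 3 exons of 218, 119 and 342 bases, 679 bases in all. No other annotated gene overlaps it, and 9345 bases separate it from Slc4a1 (ENSMUSG00000006574) at chr11:102348824-102366203 on the same strand. The first 300 bases of its spliced transcript are shown because this is the RNA that the vector was labelled to supply. They hold exon 1 and the first 82 bases of exon 2, and the capitals mark 10 bases on each side of the junction between those exons.
Bloodlinc: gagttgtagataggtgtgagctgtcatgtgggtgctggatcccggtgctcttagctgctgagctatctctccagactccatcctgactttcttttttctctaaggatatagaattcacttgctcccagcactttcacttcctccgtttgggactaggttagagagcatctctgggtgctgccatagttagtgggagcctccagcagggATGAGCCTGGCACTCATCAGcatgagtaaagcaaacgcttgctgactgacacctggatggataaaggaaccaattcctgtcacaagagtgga

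Bloodlinc itself had the largest log2 difference between the 2 vector libraries among all genes with a mean of at least 1 CPM (here the count relative to the library's TMM-scaled size). It had 52 counts with the empty vector, 1.26 CPM with a 95% exact Poisson interval of 0.939 to 1.65. With the Bloodlinc vector it had 250 counts, 5.46 CPM with an interval of 4.80 to 6.18. The 2 intervals do not overlap. The log2 difference, with a prior count of 2 added to each library, was 2.05, or 4.14-fold, and its 95% interval, the exact binomial one for a ratio of counts, ran from 1.68 to 2.58. All such intervals cover counting error only. Counts from the insert and from the chromosomal gene cannot be told apart.

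Set beside the other libraries, the Bloodlinc vector library was not far above cells without the insert. The Bloodlinc control hairpin library held 4.46 CPM (87 counts) and the hnRNPU control hairpin library 4.35 CPM (166 counts). The Bloodlinc vector library lay above these by a log2 difference of 0.29 (interval −0.07 to 0.66) and 0.32 (interval 0.04 to 0.62). The empty vector library lay below them by log2 differences of −1.76 (interval −2.35 to −1.31) and −1.73 (interval −2.27 to −1.33), and below the Bloodlinc hairpin libraries, at 2.19 and 1.75 CPM. The empty vector interval overlaps those of both Bloodlinc hairpin libraries.

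**Figure D1:**
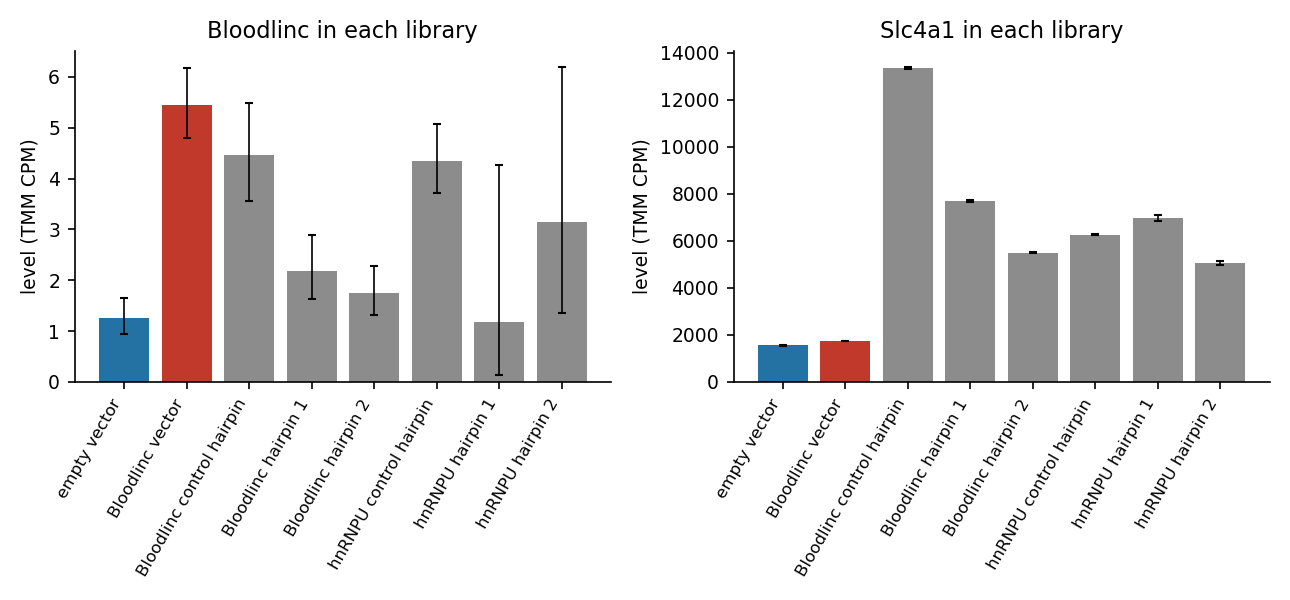
Level of Bloodlinc (left) and Slc4a1 (right) in each of the 8 libraries, in TMM CPM on axes that start at 0; bars are single libraries and lines are 95% Poisson intervals of the count. Bloodlinc was at 1.26 CPM with the empty vector (blue) and 5.46 CPM with the Bloodlinc vector (red), while Slc4a1 was lower in both vector libraries than in the 6 hairpin libraries.

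Slc4a1, the coding gene nearest to Bloodlinc in GENCODE M21, was at 1555 CPM in the empty vector library and 1742 CPM in the Bloodlinc vector library (log2 difference 0.16, interval 0.15 to 0.18). Both values lie well below the 13361 CPM and 6260 CPM of the control hairpin libraries. Of the 20 listed genes of this stretch of chromosome 11, Bloodlinc included, 15 had a mean of at least 1 CPM. The count was 12 higher and 3 lower, with a median of 0.13 against 0.02 for all genes, of which 56.5% lay above 0. Bloodlinc was the only one past 2-fold or 1.5-fold. Rundc3a was the lowest of them, at 19.9 CPM with the empty vector and 15.3 CPM with the Bloodlinc vector (−0.38, interval −0.53 to −0.23). Itga2b, the megakaryocyte integrin subunit CD41, was at 26.9 and 32.0 CPM (0.25, interval 0.14 to 0.36), and Hdac5, a histone deacetylase, at 20.9 and 24.6 CPM (0.23, interval 0.10 to 0.36).

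The empty vector library held 31706823 counts in genes and the Bloodlinc vector library 34540691. In the 2 vector libraries 30.1% and 27.4% of uniquely placed counts lay outside genes, and mitochondrial ribosomal RNA took 28.9% and 27.0% of the counts in genes. The vector libraries stood below the control hairpin libraries in their erythroid genes. The summed heme synthesis list was at 4706 and 5063 CPM, against 31073 and 15184 CPM in the control hairpin libraries. The globins were at 18236 and 20040 CPM against 42452 and 48574 CPM. In the libraries of Bloodlinc hairpins 1 and 2 heme synthesis summed to 19849 and 18354 CPM. Globins there summed to 22064 and 22348 CPM, near the vector pair. The hnRNPU hairpin libraries are shallow (2931627 and 2612916 counts in genes). They are used only in the plot of Bloodlinc levels, for the scaling factors and for the levels of 2 unmatched IDs.

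Across the transcriptome, the pair differed little. Of 11062 genes with a mean of at least 1 CPM, 10 lay past 2-fold (0.0904%), 4 higher (0.0362%) and 6 lower (0.0542%) with the Bloodlinc vector. The log2 CPM of the 2 libraries had a Pearson r of 0.996 across genes, and genes are not independent replicates. The SD of the log2 differences was 0.18, and 95% of genes lay within 0.38. Any other pair of deep libraries compared here differed more: 27.2% of genes lay past 2-fold between the control hairpin libraries, 18.2% between the Bloodlinc hairpins, 7.71% and 21.4% between these and their control hairpin, and 46.0% and 20.1% between the empty vector and the Bloodlinc and hnRNPU control hairpin libraries. Those pairs differ in hairpin or in vector, so none of them measures the spread between repeats of one condition.

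The 4 genes past 2-fold on the higher side were Bloodlinc, Lrrc32, Gm10287 and Tubb1. Lrrc32 encodes GARP, which holds latent TGF-beta on platelets and regulatory T cells. Its counts were 26 (empty vector) and 68 (Bloodlinc vector), 0.63 and 1.48 CPM (log2 difference 1.14, interval 0.57 to 1.95), above all 3 control libraries. Gm10287, a predicted noncoding RNA, had 31 and 74 counts (1.03, interval 0.48 to 1.76). Tubb1, the beta-tubulin of platelets, had 69 and 158 counts, 1.67 and 3.45 CPM (1.01, interval 0.63 to 1.48). In the Bloodlinc and hnRNPU control hairpin libraries Tubb1 stood at 5.89 and 5.90 CPM, so its Bloodlinc vector level lies inside the range of the controls.

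The 6 genes past 2-fold on the lower side included 1 coding gene with a symbol, Mmp2, a matrix metalloproteinase of stromal cells and macrophages. Its counts were 167 (empty vector) and 83 (Bloodlinc vector), 4.04 and 1.81 CPM (−1.12, interval −1.55 to −0.77). The pseudogene Gm7609 had 120 and 61 counts (−1.08, interval −1.59 to −0.67). The other 4 were IDs that the reference annotation used here did not match. The lowest of these, ENSMUSG00000082697, had 801 CPM with the empty vector and 344 CPM with the Bloodlinc vector (−1.22), and 147 and 116 CPM in the control hairpin libraries. ENSMUSG00000045999 had 133 and 61.3 CPM (−1.12), against 39.0 and 31.2 CPM.

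**Figure D2:**
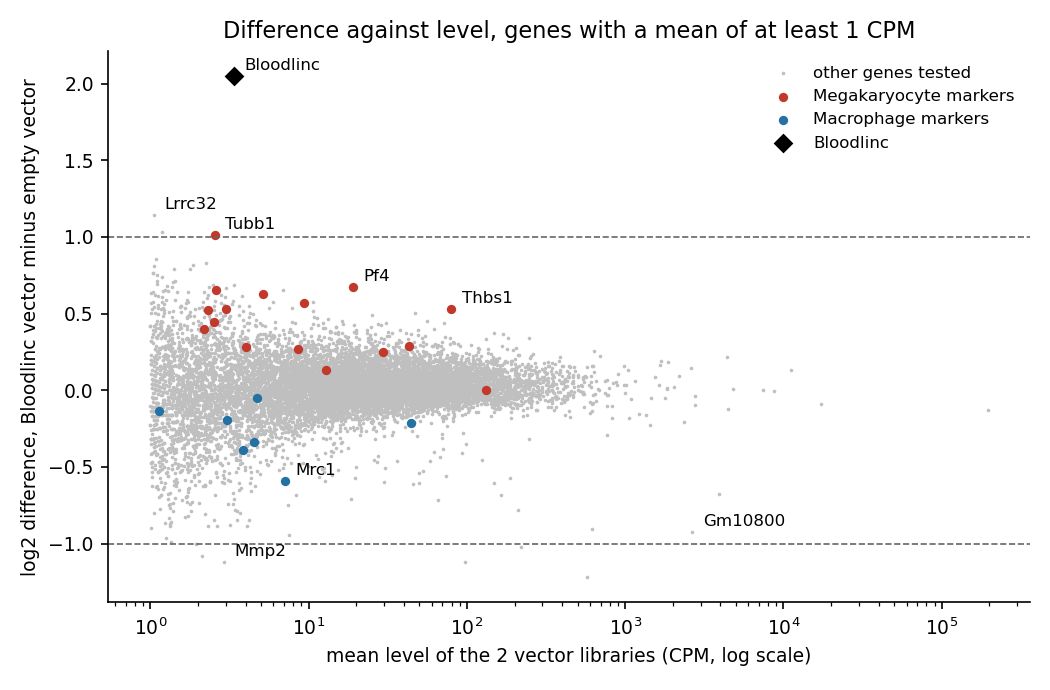
Log2 difference of each gene with a mean of at least 1 CPM (vertical axis) against its mean level in the 2 vector libraries (horizontal log axis, CPM), with dashed lines at 2-fold. Bloodlinc at 2.05 lies above every other gene, the megakaryocyte markers (red) lie between 0.00 and 1.01 and the macrophage markers (blue) between −0.59 and −0.05.

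A threshold of 1.5-fold passed 157 genes (1.42%), 47 higher (0.425%) and 110 lower (0.994%). With DESeq2's size factors these were 68 higher and 77 lower, and with scaling to total counts 60 and 87, so the balance of the sides depends on the scaling. Of the 47 higher genes 35 were protein-coding, and of the 110 lower ones 61 were, with 28 unmatched IDs. The predicted models Gm10800, Gm10801, Gm10720 and Gm10722 had a summed level of 4507 CPM with the empty vector and 2399 CPM with the Bloodlinc vector. They were at 59.7 CPM in the hnRNPU control hairpin library and had no count in the Bloodlinc control hairpin library, where 3 counts would be 0.154 CPM per gene. These 4 are counted among the lower genes and are not described further.

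With depths this large, small differences exceed counting error. The 95% interval of the count ratio lay clear of 0 for 3165 genes (28.6%), 2096 higher (18.9%) and 1069 lower (9.66%), and 56.5% of genes lay above 0 and 43.5% below. The split of the interval calls was 66.2% higher, 79.1% with scaling to total counts, 85.6% with DESeq2's size factors and 51.6% with upper quartile scaling. Among genes from 100 to 1000 CPM the log2 differences had an SD of 0.11, where counting alone gives 0.02, and from 20 to 100 CPM 0.11 against 0.05. The share of clear intervals varies with level. From 100 to 1000 CPM 450 of 1068 genes were clear on the higher side and 205 on the lower, and from 1 to 5 CPM 146 and 226 of 2621. An interval clear of 0 therefore says that the 2 libraries differ by more than counting error, with the spread between repeats unknown.

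The megakaryocyte genes formed the list farthest from the other genes. All lists were chosen with earlier results of these data known, so this rank and the counts that follow are a description and no test. Of 18 listed genes, 16 had a mean of at least 1 CPM, and all 16 lay above 0, although F2r lies at 0.00 and turns below 0 with TMM over the vector pair, with upper quartile scaling and without the 20 most abundant genes. Of all genes 56.5% lay above 0. The interval lay clear of 0 on the higher side for 12 of them and on the lower side for none. Their median log2 difference was 0.49, or 1.40-fold, against 0.02 for all genes, and stayed between 0.46 and 0.53 over the 5 other scalings. Their summed level was 326 CPM with the empty vector and 394 CPM with the Bloodlinc vector, against 274 and 272 CPM in the control hairpin libraries. The other 2 of the 18 went opposite ways at low counts: the collagen receptor Gp6 had 11 and 36 counts, and Selp, P-selectin, had 13 and 4. In bulk RNA, a difference in the number of cells of a type and one in RNA per cell cannot be told apart.

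Among the granule proteins, Pf4, platelet factor 4, had 607 counts (empty vector) and 1073 counts (Bloodlinc vector), 14.7 and 23.4 CPM (log2 difference 0.67, interval 0.53 to 0.82). The 2 control hairpin libraries held 3.79 and 7.71 CPM, below both vector libraries. Ppbp, the platelet basic protein, was at 4.06 and 6.31 CPM (0.63, interval 0.36 to 0.92) and Thbs1, thrombospondin-1, at 65.3 and 94.2 CPM (0.53, interval 0.46 to 0.60). Vwf, von Willebrand factor, had 313 and 516 counts (0.57, interval 0.37 to 0.78). Pf4, Ppbp and Thbs1 were above all 3 control libraries.

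The surface receptors differed less evenly. Treml1, an immunoreceptor of platelet granules, was at 2.01 and 3.21 CPM (0.66, interval 0.28 to 1.08), and the glycoproteins Gp9 (2.44 and 3.56 CPM) and Gp1bb (1.89 and 2.75 CPM) had log2 differences of 0.53 each. Clec1b, the podoplanin receptor, had 88 and 134 counts (0.45, interval 0.06 to 0.86). Itgb3, the partner of Itga2b in the fibrinogen receptor, was at 38.8 and 47.5 CPM (0.29, interval 0.20 to 0.39). F2r, a thrombin receptor, was at 133 CPM in both.

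Genes outside the list that are known from platelets stood on the same side, and these were picked after their values were seen. Alox12, the platelet 12-lipoxygenase, had 66 and 133 counts (0.83, interval 0.43 to 1.31). Mrvi1, a target of cGMP-dependent kinase in platelets, was at 5.34 and 8.47 CPM (0.66, interval 0.42 to 0.91). F2rl2, which encodes the thrombin receptor PAR3, was at 5.18 and 7.07 CPM (0.45, interval 0.20 to 0.71).

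The bases before the start of 3 megakaryocyte genes are shown. Pf4 and Tubb1 had the largest differences with a promoter in the reference, and Gp1ba, chosen after the search, has matches to both motifs. Treml1 and Ppbp, the next in size of difference, hold no match to either motif and are not shown. They come from RefSeq on GRCm38.p6, 250 bases each, from chr5:90772185-90772434 for Pf4, chr2:174450345-174450594 for Tubb1 and chr11:70638872-70639121 for Gp1ba, all on the plus strand. Capitals mark matches to a GATA motif (AGATAA or TGATAA) or an ETS motif (AGGAAG or CGGAAG) on either strand; a base may belong to both.
Pf4: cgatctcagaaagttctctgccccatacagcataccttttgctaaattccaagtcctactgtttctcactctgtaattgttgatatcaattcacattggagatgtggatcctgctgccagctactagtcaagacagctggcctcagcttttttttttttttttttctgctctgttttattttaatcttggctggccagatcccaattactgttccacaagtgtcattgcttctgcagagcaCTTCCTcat
Tubb1: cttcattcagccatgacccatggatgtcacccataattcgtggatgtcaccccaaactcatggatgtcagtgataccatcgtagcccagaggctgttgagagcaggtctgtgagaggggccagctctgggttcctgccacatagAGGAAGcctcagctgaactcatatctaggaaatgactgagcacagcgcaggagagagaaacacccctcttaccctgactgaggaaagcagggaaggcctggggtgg
Gp1ba: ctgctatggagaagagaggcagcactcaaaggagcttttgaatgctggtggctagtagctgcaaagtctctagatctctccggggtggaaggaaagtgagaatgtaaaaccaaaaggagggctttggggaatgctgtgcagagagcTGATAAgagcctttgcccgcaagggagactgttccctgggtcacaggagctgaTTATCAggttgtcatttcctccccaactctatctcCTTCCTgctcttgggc

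A promoter was matched for 11 of the 16 megakaryocyte genes. Of these 11, 3 held a GATA match (27.3%) and 7 an ETS match (63.6%). Among 8412 genes with a mean of at least 1 CPM and a promoter, 11.4% held a GATA match and 53.2% an ETS match. The Pf4 and Tubb1 stretches hold an ETS match and no GATA match in these letters. These are matches of short motifs in a fixed stretch and describe the sequences only.

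The lists for other blood cells and for liver tissue lay mainly on the lower side. Genes of 1 to 5 CPM as a whole had a median of −0.02, with 226 intervals clear on the lower side and 146 on the higher. The empty vector library had 26679 genes with a count and the Bloodlinc vector library 25420. The Bloodlinc and hnRNPU control hairpin libraries had 16790 and 20470. The part of level or of this breadth in the list medians was not tested. Among all genes 43.5% lay below 0, and 9.66% had an interval clear on the lower side. All 7 macrophage genes with a mean of at least 1 CPM lay below 0, and did so with TMM over the pair, total counts, DESeq2's size factors and upper quartile scaling as well, 4 of them with an interval clear of 0, and the median was −0.21. The mannose receptor Mrc1 was the lowest, at 354 counts (empty vector) and 259 counts (Bloodlinc vector), 8.56 and 5.65 CPM (−0.59, interval −0.84 to −0.36). Mrc1 was at 0.05 CPM in both control hairpin libraries. Cd68, a lysosomal protein of macrophages, was at 4.38 and 3.32 CPM (−0.39, interval −0.72 to −0.08), and Lyz2, lysozyme, at 47.5 and 40.9 CPM (−0.21, interval −0.31 to −0.12). Of the 12 listed macrophage genes below 1 CPM, the complement gene C1qb had 53 and 19 counts and Cd14 had 10 and 13. The summed macrophage level was 80.5 and 65.9 CPM, against 52.4 CPM in the Bloodlinc and 245 CPM in the hnRNPU control hairpin library.

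**Figure D3:**
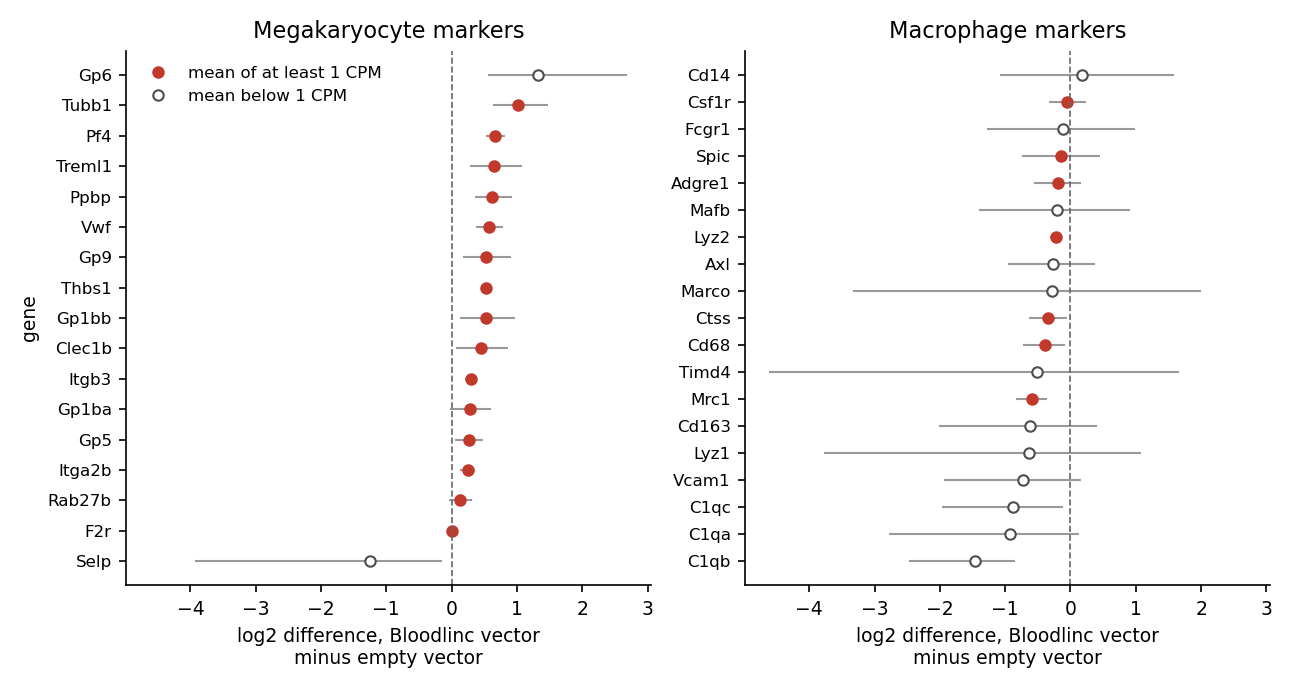
Log2 difference of 17 of the 18 listed megakaryocyte genes (left) and of each listed macrophage gene (right), with its 95% counting interval; filled points have a mean of at least 1 CPM and open points are lower. The filled megakaryocyte points lie at or above 0, from F2r at 0.00 (below 0 with TMM over the pair, with upper quartile scaling and without the 20 most abundant genes) to Tubb1 at 1.01, and the filled macrophage points lie below 0.

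Granulocyte genes had a median of −0.12, with 13 of 15 below 0 and 7 intervals clear of 0 on that side. For all genes these shares were 43.5% and 9.66%. Mpo, myeloperoxidase, was at 201 and 186 CPM (−0.12, interval −0.16 to −0.07), and Mmp8, neutrophil collagenase, at 29.1 and 23.3 CPM (−0.32, interval −0.44 to −0.20). S100a8 and S100a9, the calprotectin subunits, differed by 0.03 and −0.01, with intervals that hold 0. Mast cell and basophil genes had a median of −0.19, with 5 of 8 below 0; Hdc, the histamine-forming enzyme, was at 50.1 and 43.3 CPM (−0.21, interval −0.30 to −0.12). Lymphoid genes (3 of 4 below 0, median −0.27), hepatocyte genes (4 of 5, median −0.17) and endothelial and stromal genes (4 of 6, median −0.09) rested on few genes at low counts. Albumin, Alb, had 158 and 133 counts, and Ptprc, the leukocyte antigen CD45, 956 and 863 counts (−0.29, interval −0.43 to −0.16). Granulocyte genes summed to 1093 and 1044 CPM in the vector pair, and to 109 and 1784 CPM in the control hairpin libraries. The part of these other cell types in the differences of the erythroid genes was not tested.

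The erythroid lists lay slightly on the higher side, with no median above 0.17. Globins had 7 of 8 genes above 0 (6 with upper quartile scaling) and a median of 0.17, from 0.15 to 0.21 over the other scalings. The share of all genes above 0 was 56.5%, and 49.2% with upper quartile scaling. Hbb-bs, an adult beta-globin, was at 10662 CPM with the empty vector and 11686 CPM with the Bloodlinc vector (0.13, interval 0.13 to 0.14), and Hbb-bt, the other adult beta-globin, at 4048 and 4698 CPM (0.21, interval 0.21 to 0.22). Hba-a1, an alpha-globin, differed by 0.02. The adult globin genes come in near-identical copies, so their separate values are uncertain. The embryonic globin Hbb-y had 67 and 61 counts and Hbb-bh1 129 and 172, both with intervals that hold 0.

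Heme synthesis genes had 15 of 18 above 0, 11 intervals clear on the higher side and none on the lower, with a median of 0.09. Across all genes, 56.5% lay above 0 (68.7% with DESeq2's size factors), 18.9% were clear on the higher side and 9.66% on the lower. Alas2, the erythroid first enzyme of the pathway, was at 927 and 1032 CPM (0.15, interval 0.14 to 0.17), and Alad, the next enzyme, at 125 and 139 CPM (0.15, interval 0.10 to 0.20). Alas1, the housekeeping form, was at 19.7 and 18.1 CPM, with an interval of −0.27 to 0.01. Red cell membrane genes had 23 of 30 above 0, 20 with clear intervals, and a median of 0.11. Icam4, an adhesion protein of erythroblasts, was at 16.7 and 20.7 CPM (0.31, interval 0.17 to 0.46). Sptb, beta-spectrin, was at 639 and 746 CPM (0.22, interval 0.20 to 0.25), and Tmod1, which caps actin filaments, at 62.5 and 74.5 CPM (0.25, interval 0.18 to 0.33).

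Of 28 transcriptional regulators of erythroid genes, 22 lay above 0 and 6 below, with a median of 0.11. Over all genes, 56.5% lay above 0, 18.9% were clear on the higher side and 9.66% on the lower. Among the 28, 16 intervals lay clear on the higher side and 3 on the lower. Those 3 were the progenitor factor Myb, at 111 and 86.5 CPM (−0.35, interval −0.42 to −0.29), the antioxidant regulator Nfe2l2, at 70.7 and 63.5 CPM (−0.15), and the erythroid factor Klf1, at 169 and 160 CPM (−0.07, interval −0.12 to −0.03). Klf3 (47.4 and 60.7 CPM), a repressor of the KLF family, and Klf13 (38.6 and 49.8 CPM) differed by 0.36 and 0.37. E2f2, a cell cycle factor of late erythroblasts, was at 160 and 203 CPM (0.34, interval 0.30 to 0.39). Foxo3, which drives late maturation genes, was at 283 and 312 CPM (0.14, interval 0.11 to 0.18). The erythropoietin signalling list had a median of 0.07 with 20 of 25 above 0, among them the feedback inhibitors Socs3 (454 and 666 counts, 0.40) and Cish (21.6 and 26.8 CPM, 0.31). Late maturation genes had 26 of 33 above 0 and a median of 0.09. There the lipoxygenase Alox15 was lowest, at 3.60 and 2.58 CPM (−0.47).

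Histone genes, whose replication-dependent members are transcribed in S phase, had 39 of 44 above 0 and a median of 0.12, where 56.5% of all genes lay above 0. Hist1h1c, a linker histone, was at 577 and 689 CPM (0.26, interval 0.23 to 0.28). Mitosis genes had 26 of 30 above 0 (median 0.08), with Mki67 at 1565 and 1786 CPM (0.19, interval 0.18 to 0.21). Replication genes had a median of 0.03, near that of all genes, with 25 of 38 above 0, 32 with DESeq2's size factors and 21 with upper quartile scaling. The shares over all genes were 56.5%, 68.7% and 49.2%. Clear intervals of the replication genes were 12 higher and 1 lower, but 5 and 6 with upper quartile scaling. For all genes these were 18.9% and 9.66%, and 1579 and 1484 of 11062 with upper quartile scaling. Cdt1, a licensing factor, was the highest of the replication genes (31.5 and 38.0 CPM, 0.27).

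Mitochondrial mRNAs lay on the lower side in all 11 members with a mean of at least 1 CPM, each with a clear interval also with TMM over the pair, total counts, DESeq2's size factors and upper quartile scaling, with a median of −0.18. The respiratory chain subunits mt-Nd2 (840 and 687 CPM, −0.29) and mt-Cytb (1550 and 1324 CPM, −0.23) were among the lowest, and mt-Co1 was at 4674 and 4294 CPM (−0.12). Over all genes 43.5% lay below 0 and 9.66% were clear on the lower side. Clear intervals are common at high levels: of 34 genes of at least 1000 CPM, 13 were clear higher and 17 lower. Nuclear-encoded respiratory chain genes had a median of −0.01, which turned positive with scaling to total counts and DESeq2's size factors. The ribosomal protein list had 30 of 80 above 0, 43 with scaling to total counts, 50 with DESeq2's size factors and 17 with upper quartile scaling. Its median was −0.02, positive under the first 2 of these other scalings, so its sign against 0 does not hold across scalings. The shares of all genes above 0 were 56.5%, 63.4%, 68.7% and 49.2% in the same order. Each was larger than the share of the ribosomal protein list. Genes of the p53 response had a median of −0.02 with the same flips, and 9 of its 19 members had an interval clear of 0, 4 higher and 5 lower. Among all genes 28.6% had a clear interval. Eda2r, a TNF receptor family member that p53 induces, was at 36.2 and 23.8 CPM (−0.60, interval −0.72 to −0.49), below all 3 controls. The cell cycle inhibitor Cdkn1a was at 104 and 85.8 CPM (−0.28, interval −0.34 to −0.22), and the death receptor Tnfrsf10b at 11.7 and 9.34 CPM (−0.32, interval −0.51 to −0.13). On the higher side the stress gene Gadd45a was at 340 and 383 CPM (0.17, interval 0.14 to 0.20), and Bbc3, the apoptosis inducer PUMA, at 28.8 and 32.6 CPM (0.18, interval 0.07 to 0.29).

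**Figure D4:**
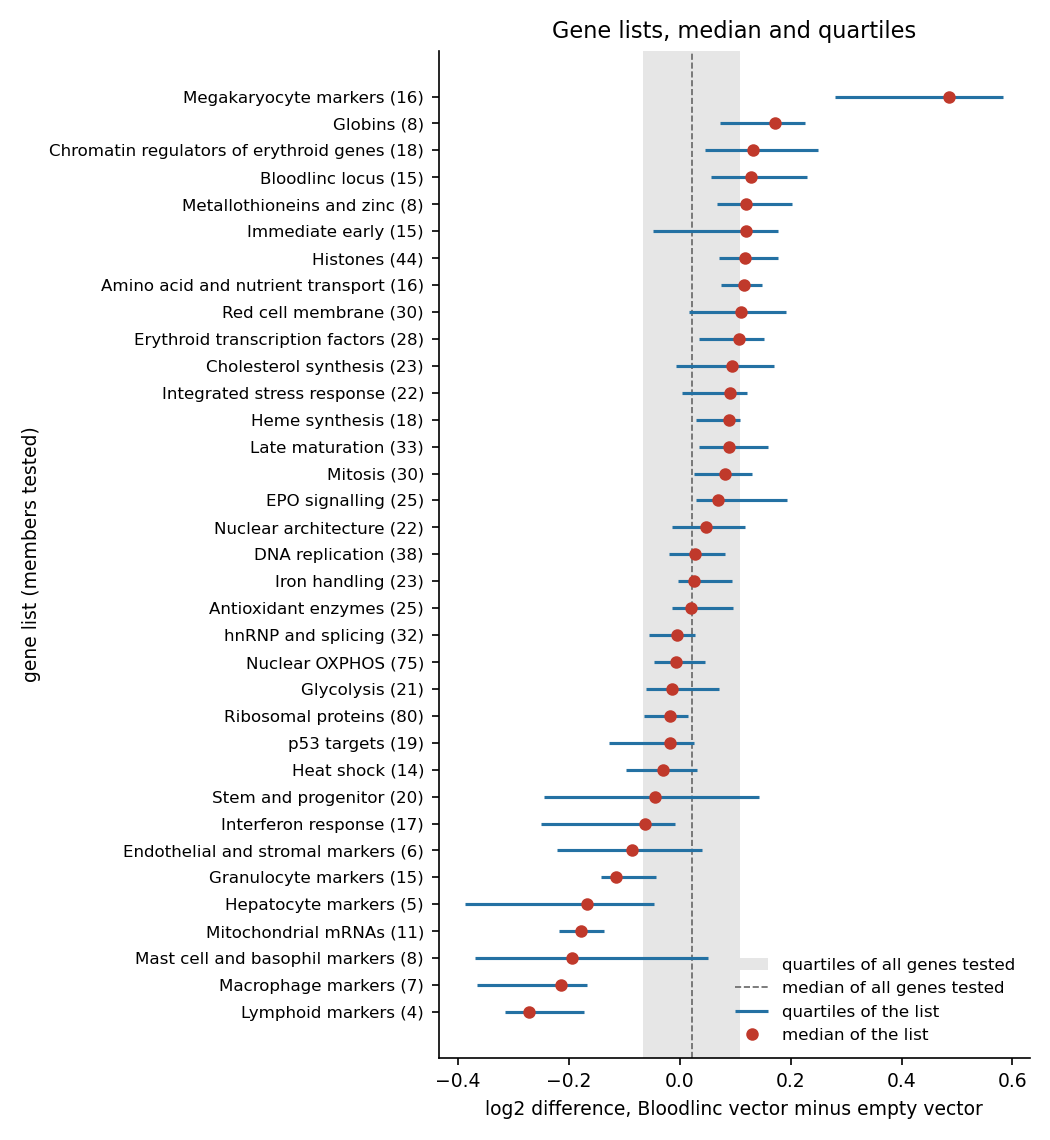
Median (red) and quartiles (blue) of the log2 difference in each of the 35 gene lists, with the number of genes of at least 1 CPM in brackets; the grey band and dashed line are the quartiles and median of all genes. The megakaryocyte list has a median of 0.49, the next highest list 0.17, and medians near 0 (glycolysis, antioxidant enzymes, ribosomal proteins, nuclear OXPHOS, heat shock, p53 targets, hnRNP and splicing) turn sign under at least 1 other scaling.

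Among the metabolic and stress lists, cholesterol synthesis genes had 16 of 23 above 0 and a median of 0.09. The share above 0 over all genes was 56.5%, with 68.7% under DESeq2's size factors and 49.2% under upper quartile scaling. The integrated stress response had 17 of 22 above 0, with Trib3, a pseudokinase induced by ATF4, at 47.2 and 64.5 CPM (0.45, interval 0.37 to 0.53). Co-activators and co-repressors of erythroid genes had 16 of 18 above 0 and a median of 0.13. Of 23 iron genes 16 lay above 0 (13 with upper quartile scaling, 20 with DESeq2's size factors) with a median of 0.03. Their intervals lay clear on the higher side for 6 and on the lower side for 2, where 18.9% and 9.66% of all genes did. The member farthest above 0, Ireb2, an iron regulatory protein, was at 26.3 and 35.7 CPM (0.44, interval 0.33 to 0.55), and the one farthest below, Hmox1, heme oxygenase-1, at 273 and 219 CPM (−0.32, interval −0.36 to −0.28).

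Among genes of at least 5 CPM with a symbol whose Bloodlinc vector level lay outside the range of all 3 controls, those with the largest differences after Pf4, Mrvi1 and Ppbp were Nab2, a corepressor of EGR factors, and Mnt, a MAX partner. Nab2 was at 8.51 and 12.7 CPM (0.58, interval 0.39 to 0.78) and at 0.05 and 0.18 CPM in the control hairpin libraries. Mnt was at 4.74 and 7.10 CPM (0.57, interval 0.32 to 0.85). Polr2a, the largest subunit of RNA polymerase II, was at 38.8 and 55.1 CPM (0.51, interval 0.42 to 0.60). Of those with a mean of at least 100 CPM, Srrm2, a spliceosome protein, was highest (217 and 275 CPM, 0.34), followed by Cad, which starts pyrimidine synthesis (108 and 130 CPM, 0.27). On the lower side, after Eda2r, came Tmtc1 at 8.15 and 5.70 CPM (−0.51), the sterol exporter Abcg1 at 6.48 and 4.61 CPM (−0.49) and Rundc3a. Of those with at least 100 CPM, the p53 target Ccng1 was lowest (471 and 419 CPM, −0.17, interval −0.20 to −0.14).

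Transcript properties moved with the differences. Across 10768 genes with an annotation, Spearman's rho of the log2 difference was 0.13 with exon length and 0.17 with GC content, values that describe genes sharing the same 2 libraries. Among genes of at least 5 CPM, the quartile with the longest exons had a median of 0.05 and 69.8% above 0, the shortest −0.00 and 48.8%. By GC content, the highest quartile had 68.3% above 0 and the lowest 50.2%. The median exon length was 2937 bases among megakaryocyte genes and 4546 bases among all genes, and their median GC content 53.3% and 49.1%. For mitochondrial mRNAs these were 957 bases and 37.1%. The part of length and GC content in the list medians was not tested.

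The Bloodlinc hairpin libraries offer the opposite manipulation and share no library with the vector pair. Across 11062 genes the log2 difference of the vector pair had a Spearman's rho of −0.05 with hairpin 1 against its control and −0.04 with hairpin 2. No gene lay past 2-fold higher with the vector and past 2-fold lower with both hairpins, where hairpins 1 and 2 had 3.64% and 8.08% of genes past 2-fold lower. Only 4 genes were past 2-fold higher with the vector, so few could qualify. Bloodlinc, 1 of the 4, was at −0.999 with hairpin 1, just short of 2-fold, and −1.31 with hairpin 2. At 1.5-fold (10.9% and 19.6% lower) there were 6, Bloodlinc itself with Alox12, Ppbp, Ldlrad4, Gm25500 and Gm14198. Ppbp had 4.97 CPM in the control hairpin library and 3.20 and 1.46 CPM in those of hairpins 1 and 2. In the other direction, lower with the vector and higher with both hairpins, 2 unmatched IDs lay past 2-fold, ENSMUSG00000082697 and ENSMUSG00000045999 (4.08% and 13.4% of genes were higher with the hairpins). In the shallow libraries of hnRNPU hairpins 1 and 2, ENSMUSG00000082697 took 482647 and 196451 CPM and ENSMUSG00000045999 82007 and 36433 CPM. What RNA these IDs count was not tested. There were 17 past 1.5-fold (11.7% and 23.7% higher), among them Mrc1, which had 1 and 5 counts in the control and in each hairpin library. On matching sides at 1.5-fold, 12 genes were lower with the vector and with both hairpins, and 4 were higher in all of these. The opposite counts, 17 and 6, thus stand beside 12 and 4 on matching sides, and no test compares them. These genes were filtered by level in the vector pair only. The shares with the hairpins are over genes with a mean of at least 1 CPM in each hairpin pair. Several genes on both sides had few counts in the control, hairpin 1 and hairpin 2 libraries. Among the 17, Gm10800 had 0, 3 and 11 and Amigo2 0, 10 and 8, and among the 12, Clec10a had 4, 1 and 1. The megakaryocyte list had medians of 0.11 and 0.87 with hairpins 1 and 2, on the same side as with the vector. Globins had medians of −1.25 and −0.93 there, and heme synthesis genes −0.39 and −0.51. The 2 hairpin comparisons share their control library.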

How the data were processed

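Per the labels, RNA was depleted of rRNA, libraries kept strand through dUTP, and a HiSeq2000 was used. The submitters' processing notes name TopHat2 2.0.11, HTSeq and mm9. The HTSeq version, the annotation and the strand setting are not given in the sources used here. The authors deposited raw counts per gene for each library, 37620 IDs and 5 summary entries, which were left out of library sizes.

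Symbols, biotypes, exon lengths and positions came from GENCODE M21 on GRCm38, which matched 87.4% of the IDs; 13 list entries had no match. TMM factors came from edgeR 4.0.16 in R 4.3.3, over all 8 libraries and the 15355 genes that filterByExpr kept. Log2 differences used a prior count of 2, and genes needed a mean of at least 1 CPM over the pair. With 1 library in each arm no test was run. Intervals are exact at 95% and cover counting error only. The steps were tested on simulated data.

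Named genes were Bloodlinc and Slc4a1; the 20 highest and 20 lowest log2 differences with a mean of at least 5 CPM, a symbol and a Bloodlinc vector level outside the 3 controls; 8 and 8 of at least 100 CPM; and, from each of 35 lists, the 4 largest differences and 2 with the highest CPM. The text gives a choice of these, and the other members it names were chosen after their values were seen. The members and lists were chosen with earlier results of these data known. Alternatives were other scalings (DESeq2 1.42.0 among them), filters, prior counts, thresholds and control libraries. Values of some named genes are not reported here.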

Additional observations from a re-analysis of the deposited data

How the results depend on the processing

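The 4 genes higher and 6 lower past 2-fold stayed within 1.5 times of these numbers under each of the 5 other scalings and with a prior count of 0.5. A prior count of 5 left 2 higher. With no filter on low counts, 188 were higher and 732 lower. A mean of at least 5 CPM, which leaves out Bloodlinc itself, gave 0 and 3, and one of at least 20 CPM again 0 and 3. Protein-coding genes only gave 2 and 1. Thresholds of 1.5-fold and 4-fold gave 47 and 110, and 1 and 0. An interval clear of 0, a rule added after the data were seen, gave 2096 and 1069.

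The choice of control moved the calls most. Against the Bloodlinc control hairpin 2532 genes were higher and 2303 lower, against the hnRNPU control hairpin 928 and 1106, and against the mean of the 3 controls 916 and 600. Bloodlinc's own log2 difference was then 0.29, 0.32 and 0.89, against 1.96 to 2.10 under the scalings and prior counts. Tubb1 turned to −0.76, −0.76 and −0.17, ENSMUSG00000082697 to 1.22, 1.57 and 0.52, and ENSMUSG00000045999 to 0.65, 0.97 and 0.17. The cause was not tested. Of 35 list medians, 5 changed sign with scaling to total counts, 1 with upper quartile scaling, 6 with size factors of DESeq2, 1 without the 20 most abundant genes, and 26, 24 and 26 against the other controls.

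No paired analysis was possible because each group holds 1 library. Depth allowed 0.0725 CPM for a count of 0 (3 counts) with the empty vector and 0.0655 CPM with the Bloodlinc vector.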
